A study of Mus musculus with 2 samples.

Results

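The genes described here are 9 regulators and effectors of epithelial-mesenchymal transition (EMT): the zinc-finger repressors Snai1 and Snai2, the zinc-finger homeobox repressors Zeb1 and Zeb2, the basic helix-loop-helix factors Twist1 and Twist2, and the proteins Vim, Fn1 and Tgfbi. They were chosen by gene symbol, and all 9 were measured among the 19937 genes named on the arrays. Each had 1 probe set of its own and none that it shared with another gene. The values came from Affymetrix whole-transcript arrays hybridized with RNA from thymic epithelium of B6 mice killed at 6 weeks of age. The cells were medullary thymic epithelial cells (mTEC), sorted as positive for EpCAM, negative for CD45 and low for both Ly51 and MHC class II. Mice of both groups carried the floxed allele HDAC3fl/fl. The group labelled WT had no Cre, and the group labelled HDAC3cKO carried Foxn1-Cre, which is active in thymic epithelium. The design text describes the sorted cells as residual mTEC, collected to a number of about 30000, for which 10 to 30 HDAC3cKO mice were typically pooled; pooling of WT mice is not described.

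Each group had 1 array. The values below therefore carry no replicate error, a test between the groups was not possible, and precision is limited by the number of arrays, 2 in all. These are called the WT array and the HDAC3cKO array after their labels. A difference is log2 HDAC3cKO minus log2 WT, and "higher" and "lower" are used of genes that differed by at least 2-fold, that is by 1 or more on the log2 scale. For scale, the median of all named genes was 0.01, with 95% of them in a central range from -1.72 to 1.07. The targeted gene Hdac3, which encodes a histone deacetylase of corepressor complexes, had a log2 level of 10.90 on the WT array and 11.64 on the HDAC3cKO array. Its difference of 0.74 ran against the label, and no label tells whether its probe set covers the deleted exons. Directions below rest on the labels. Whether the labels of the arrays are exchanged was not tested, and an exchange would turn every direction given here.

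EMT is the programme by which epithelial cells lose junctions and apical-basal polarity and take on the shape, motility and matrix of mesenchymal cells. Proteins of the Snail, Zeb and Twist families bind E boxes in DNA and repress epithelial genes such as Cdh1, the gene of E-cadherin. The signal best known to raise them is TGF-beta, and the miR-200 family of microRNAs holds Zeb1 and Zeb2 down in epithelium. Vimentin, fibronectin and the matrix protein encoded by Tgfbi are commonly used as readouts of the mesenchymal state, although blood cells, endothelium and stroma also make them.

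Of the 9 genes, 1 was at least 2-fold lower on the HDAC3cKO array and 0 were 2-fold higher. The same fold was passed downward by 5.88% of all named genes and upward by 2.97%, so the members' count lay near this background. With a 1.5-fold threshold, 2 of the 9, Snai1 and Fn1, were higher, against 8.33% of all named genes, and 1 was lower, against 11.2%. The mean level of 6 members was at or above the median gene. Among these 6, 1 was 2-fold lower and 0 were 2-fold higher, beside 6.75% and 4.54% of the 9969 genes at such levels. The gene past 2-fold was Tgfbi, and the other 8 differed by between -0.11 and 0.80. The median difference of the 9 was 0.16, beside 0.01 over all named genes, with 5 values above 0 and 4 below. All 9 lay inside the central 95% of genes.

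**Figure D1:**
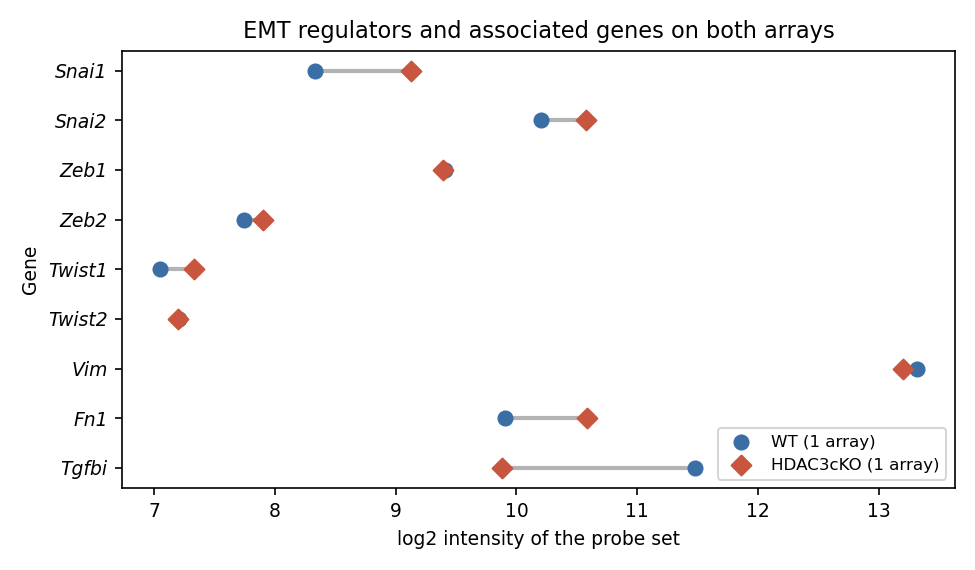
Log2 intensity of the probe set of each of the 9 EMT genes (horizontal axis) on the WT array (circles) and the HDAC3cKO array (diamonds), 1 array each, joined by a grey line. Tgfbi is the gene with the longest line, from 11.48 to 9.88, and the symbols of Zeb1 and Twist2 overlap; positions of different genes are not comparable, because each probe set has its own response.

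The Snail family members had the largest upward differences among the 6 transcription factors, both under 2-fold. Snai1 encodes Snail, a zinc-finger repressor of Cdh1 that acts early in EMT. Its log2 level was 8.33 on the WT array and 9.13 on the HDAC3cKO array. The difference was 0.80, or 1.74-fold, and 95.1% of all named genes had a lower value. Snai2, which encodes Slug and is also expressed in basal cells of stratified epithelia, had a log2 level of 10.21 on the WT array and 10.57 on the HDAC3cKO array. That difference was 0.37, or 1.29-fold, which exceeded that of 84.0% of genes. Snai1 thus differed by 0.43 more than Snai2 on the log2 scale. The related Snai3, with a mean level below the median gene, was at 6.71 on the WT array and 6.61 on the HDAC3cKO array, a difference of -0.10.

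The Zeb family showed little difference between the arrays. Zeb1, a repressor with zinc-finger clusters on both sides of a homeodomain, had a log2 level of 9.41 on the WT array and 9.39 on the HDAC3cKO array. Its difference of -0.02 was close to the median gene, and it became 0.03 when the arrays were centred on their medians. Zeb2, its paralog, which is also expressed in macrophages and other blood cells, had a log2 level of 7.74 on the WT array and 7.90 on the HDAC3cKO array. The difference was 0.16, or 1.11-fold.

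Twist1 and Twist2 were measured at low signal. Twist1, a basic helix-loop-helix factor of mesoderm and mesenchyme, had a log2 level of 7.05 on the WT array and 7.33 on the HDAC3cKO array. These were 0.28 apart. For Twist2, a factor of dermal fibroblasts, the log2 level was 7.20 on both arrays, with intensities of 147.4 on the WT array and 147.0 on the HDAC3cKO array. The sign of its difference depended on the scaling, between -0.03 and 0.05. Twist1, Twist2 and Zeb2 had mean levels below the median of all named genes, 8.03. The table holds no detection calls, so whether these 3 were above background is unknown, and a difference at such a level can understate the change.

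Of the 3 effector genes, Tgfbi was lower, Fn1 had an upward difference under 2-fold and Vim was nearly equal. Tgfbi encodes a secreted matrix protein that binds integrins and collagen and is induced by TGF-beta. Its log2 level was 11.48 on the WT array and 9.88 on the HDAC3cKO array, intensities of 2853 and 941. The difference was -1.60, or 3.03-fold lower, and 2.82% of genes had a still lower value. Fn1 encodes fibronectin, the matrix glycoprotein that mesenchymal cells deposit and migrate on. Its log2 level was 9.90 on the WT array and 10.59 on the HDAC3cKO array. The difference was 0.68, or 1.61-fold. Vim encodes vimentin, the intermediate filament of mesenchymal, endothelial and blood cells. It was at 13.32 on the WT array and 13.20 on the HDAC3cKO array. The difference was -0.11. Its intensity was 10193 on the first and 9430 on the second, so Vim gave a strong signal on both arrays of cells sorted for an epithelial antigen.

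**Figure D2:**
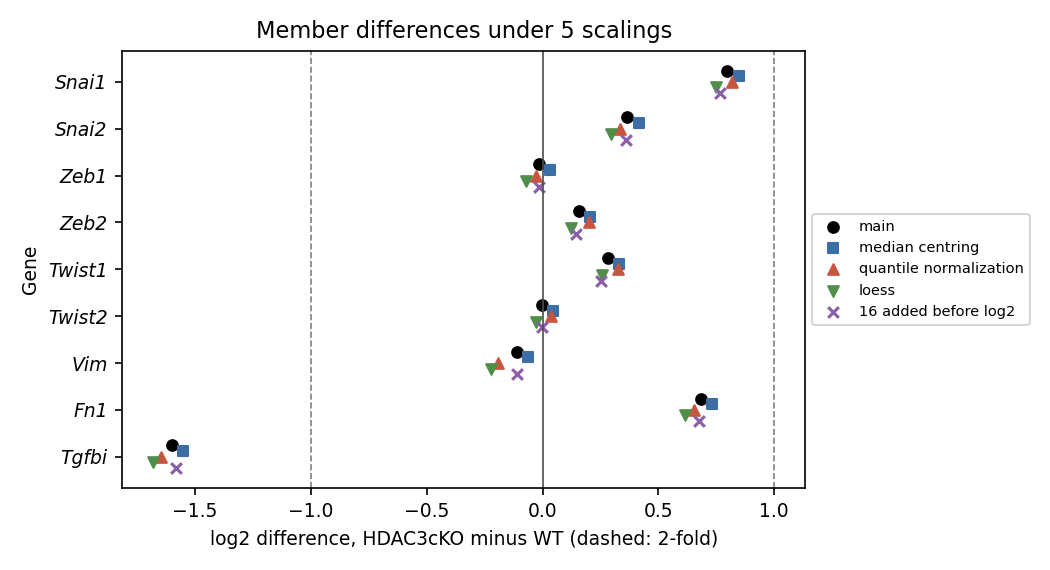
Log2 difference of each of the 9 EMT genes (horizontal axis, HDAC3cKO minus WT) as deposited (main) and after 4 other treatments of the values, with dashed lines at 2-fold. Tgfbi stays below -1 at every setting plotted, between -1.68 and -1.55, no other gene passes 2-fold, and the points of Zeb1 and Twist2 fall on both sides of 0.

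The dimerization partners of Twist and their inhibitors were measured next to the members. Twist proteins bind DNA with E proteins, and Id proteins sequester E proteins in inactive pairs. Of 7 such genes, 1 was higher and 0 were lower, with a median of 0.37, beside 2.97% higher and 5.88% lower over all named genes. Id3 was the higher gene, with a log2 level of 10.10 on the WT array and 11.51 on the HDAC3cKO array. It was 2.67-fold higher, by 1.42 on the log2 scale. The other Id genes had differences of 0.62 for Id1, 0.02 for Id2 and -0.12 for Id4. Among the E proteins, Tcf12 differed by 0.64, Tcf3 by 0.37 and Tcf4 by 0.13.

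Other factors and cofactors of EMT showed no member past 2-fold. This held for all 15 measured genes of other EMT transcription factors, with a median of 0.15 and a range from -0.67 to 0.85. Only 7 of these 15 had mean levels at or above the median gene. For the rest, whether they were above background is unknown, and their differences can understate a change. It also held for all 17 corepressors of Snail and Zeb proteins and regulators of their stability, with a median of 0.03 and a range from -0.38 to 0.64. Over all named genes 8.86% were past 2-fold in either direction.

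Among signals that induce EMT, 5 of 22 genes were higher and 1 was lower, with a median of 0.24, beside 2.97% higher and 5.88% lower over all named genes. After median centring 6 were higher. Il6, an inflammatory cytokine gene, had a log2 level of 7.26 on the WT array and 9.58 on the HDAC3cKO array, 5.005-fold higher. Tgfbr3, which encodes the TGF-beta co-receptor betaglycan, was at 9.11 and 11.23, 4.34-fold higher. Tgfb2, a TGF-beta ligand gene, was at 8.49 and 9.77, 2.42-fold higher. Hgf, the ligand of the receptor MET, was at 7.79 and 6.03, 3.40-fold lower, with a mean level below the median gene. The other ligands and signalling receptors of TGF-beta were under 2-fold. Tgfb1 differed by -0.27, Tgfb3 by 0.14, Tgfbr1 by -0.07 and Tgfbr2 by 0.96. The Tgfbi value of -1.60 stood beside a higher Tgfb2 and Tgfbr3 on the same pair of arrays.

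Mesenchymal genes other than the members went both ways. Of 28 measured genes, 4 were higher and 2 lower, with a median of 0.23, beside 2.97% and 5.88% of all named genes. After quantile normalization 3 were higher and 3 lower. After loess scaling 3 were higher and 4 lower, the latter including the smooth muscle actin gene Acta2 and S100a4, whose values as deposited were -0.99 and -0.97. Mmp2, a gelatinase gene of stromal cells, had a log2 level of 9.60 on the WT array and 11.64 on the HDAC3cKO array, 4.11-fold higher. Vcan, the gene of the matrix proteoglycan versican, was 2.53-fold higher, and Fstl1, a secreted glycoprotein gene, was 2.15-fold higher. Cdh2, the gene of N-cadherin, was at 11.21 and 8.27, 7.70-fold lower, and the gelatinase gene Mmp9 was 4.12-fold lower. Among integrin chains that bind fibronectin, named after their values were seen, Itga5 differed by 0.84, Itgav by 0.76 and Itgb1 by 0.25, beside 0.68 for Fn1 itself.

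Of 31 measured epithelial genes that EMT is known to lower, 11 were lower on the HDAC3cKO array and 0 higher. Over all named genes 5.88% were lower and 2.97% higher, and among genes at or above the median level 6.75% and 4.54%. Of the 31 genes, 27 had such levels. The list was chosen with earlier results of these data known. The median of the list was -0.44, beside 0.01 over all named genes. The claudin genes Cldn1 and Cldn7, which encode tight junction proteins, were 5.71-fold and 4.74-fold lower, and the mucin gene Muc1 was 3.71-fold lower. Cdh1, the classic target of Snail and Zeb proteins, had a log2 level of 12.38 on the WT array and 12.06 on the HDAC3cKO array, apart by -0.32 on the log2 scale, or 1.24-fold. Epcam, the antigen of the sort, differed by -0.27. Among regulators that oppose EMT, the splicing factors Esrp1 and Esrp2 differed by -0.44 and -0.82, and the Ovo-like repressors Ovol1 and Ovol2 by -0.78 and -0.22. The epithelial factor gene Grhl2 went the other way, by 0.95. Further junction genes were named after their values were seen. Under 2-fold were Tjp1 at 0.46 and the desmosome genes Dsp at -0.03, Jup at -0.43 and Pkp3 at -0.21. The tight junction genes Cgn, at -0.19, and Marveld3, at -0.12, were also under 2-fold. At least 2-fold lower were the tight junction genes Tjp3 at -1.82, Cldn3 at -1.39, Marveld2 at -1.35, Ocln at -1.32 and Cldn4 at -1.16. The desmosome gene Pkp2, at -1.44, was lower too. Pkp2 and Marveld2 had mean levels below the median gene.

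**Figure D3:**
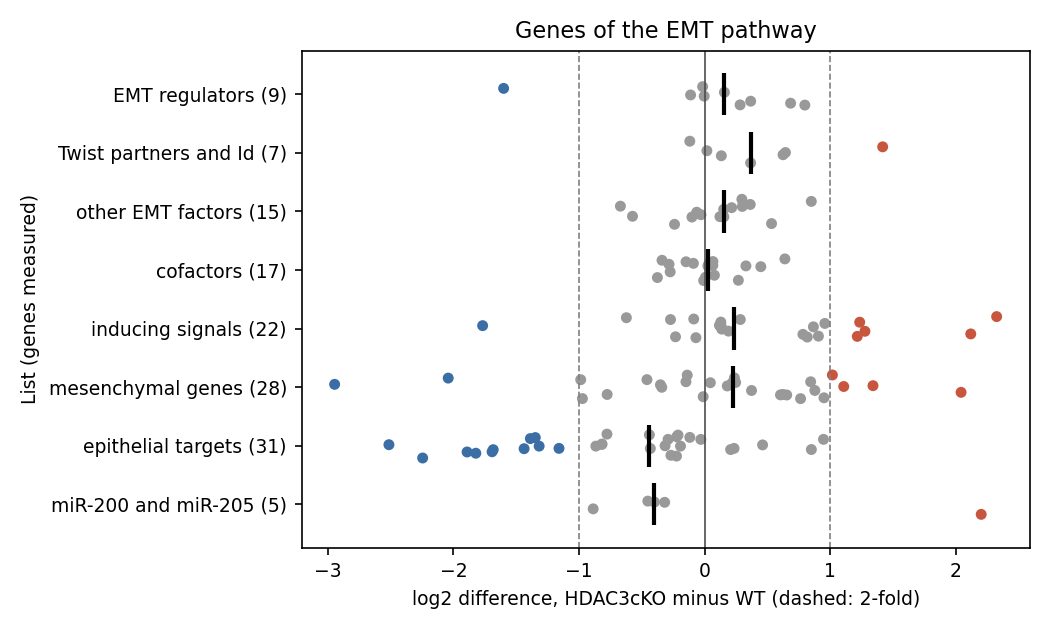
Log2 difference of each measured gene (points, horizontal axis, HDAC3cKO minus WT) in 8 lists of the EMT pathway, with the number of genes in parentheses and a black bar at the median; red and blue points are higher and lower by 2-fold or more, dashed lines mark 2-fold, and vertical scatter has no meaning. The epithelial list has 11 blue points and no red one. The row named EMT regulators, with all 9 members, has 1 blue point, Tgfbi, and no red one, and spans -1.60 to 0.80.

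Promoter sequences were examined for the E box that Snail and Zeb proteins are known to bind. Binding itself was not measured. The motif searched was CAGGTG, or CACCTG on the other strand, in windows of 300 bases from RefSeq (GRCm38.p6), 250 before and 50 after each annotated start. Of the 9 members, 6 had windows, 9 in all, some of them overlapping. Snai1 was the member with a match, in its single window, with the motif starting at position -126 from the annotated start. No window of Zeb2, Twist1, Twist2, Vim or Tgfbi held it. The motif occurs in 20.2% of all 32851 windows. Of the 11 epithelial genes at least 2-fold lower, 10 had windows and 9 of these held the motif in at least 1. Of the 20 under 2-fold, only 10 had windows, and 6 of these held it. Genes without a window, Cdh1 among them, were not searched, so the groups were not covered alike. By window, the counts were 12 of 14 and 7 of 11. Genes entered the epithelial list in part as known targets of these repressors, and the list holds genes with several windows. A match is a description of the letters and not a binding site. The sequences give, in capitals, the matches in Snai1, the member with a match, and in Cldn7 and Muc1, the epithelial genes with the largest negative differences among those with a match. The Snai1 window is chr2:167537945-167538244 on the plus strand, the Cldn7 window chr11:69965171-69965470 on the plus strand and the Muc1 window chr3:89228806-89229105 on the plus strand.
Snai1: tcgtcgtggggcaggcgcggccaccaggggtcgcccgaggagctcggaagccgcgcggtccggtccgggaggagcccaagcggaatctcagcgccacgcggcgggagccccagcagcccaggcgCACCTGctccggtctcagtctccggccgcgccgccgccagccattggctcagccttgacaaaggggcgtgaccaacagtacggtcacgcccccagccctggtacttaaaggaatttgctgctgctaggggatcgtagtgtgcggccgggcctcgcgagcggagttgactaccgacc
Cldn7: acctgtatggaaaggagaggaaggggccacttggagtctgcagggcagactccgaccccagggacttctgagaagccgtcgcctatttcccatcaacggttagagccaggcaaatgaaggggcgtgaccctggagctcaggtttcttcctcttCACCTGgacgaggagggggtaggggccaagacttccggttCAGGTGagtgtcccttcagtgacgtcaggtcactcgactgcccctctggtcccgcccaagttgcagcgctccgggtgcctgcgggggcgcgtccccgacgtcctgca
Muc1: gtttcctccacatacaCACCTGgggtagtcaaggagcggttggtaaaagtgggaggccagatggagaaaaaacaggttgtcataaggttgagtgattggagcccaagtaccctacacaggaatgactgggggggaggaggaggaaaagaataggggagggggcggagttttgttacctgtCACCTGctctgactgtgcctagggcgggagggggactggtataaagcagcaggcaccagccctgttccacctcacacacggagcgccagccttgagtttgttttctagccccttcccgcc
Cldn7 and Muc1 each have 2 matches in the window shown and Snai1 has 1. Cldn1, with the largest negative difference of the list, has none in its window.

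The precursors of the miR-200 family, which repress Zeb1 and Zeb2, were measured as genes of their own, all with mean levels below the median gene. A value here is that of a probe set for the precursor and does not measure the mature microRNA. The mature sequences from RefSeq (GRCm38.p6) are shown with the seed, bases 2 to 8, in capitals, because the seed divides the family into 2 groups.
miR-200b-3p: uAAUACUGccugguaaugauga
miR-200c-3p: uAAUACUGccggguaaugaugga
miR-429-3p: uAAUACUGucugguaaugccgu
miR-200a-3p: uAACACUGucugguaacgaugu
miR-141-3p: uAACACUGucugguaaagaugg
miR-205-5p: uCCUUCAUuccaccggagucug
The first 3 share 1 seed, the next 2 share a seed that differs from it by a single base, and miR-205, which also represses Zeb1 and Zeb2, has another. Precursor genes were named in full after their values were seen. In the first seed group, Mir200b was at 8.44 on the WT array and 7.55 on the HDAC3cKO array, a log2 difference of -0.89, and Mir200c differed by -0.45. Mir429 shared its probe set with another gene and was not used here. In the second seed group, Mir200a differed by -0.32 and Mir141 by -0.40. All 4 measured miR-200 precursors had values below 0 and under 2-fold, beside a median of 0.01 over all named genes. Mir200a and Mir200b lie close together on chromosome 4, and Mir200c and Mir141 on chromosome 6, so these values may not be independent. Mir205 was at 5.91 on the WT array and 8.11 on the HDAC3cKO array, 4.60-fold higher. Zeb1 and Zeb2, as given above, differed by -0.02 and 0.16.

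Several of the 9 EMT genes are expressed by cells outside the sort gate, and markers of such cells differed between the arrays. Of 14 fibroblast markers, 7 were higher on the HDAC3cKO array, with a median of 1.05. Over all named genes 2.97% were higher, for this list and those of endothelium and mesothelium alike. The summed intensity of the fibroblast markers was 11751 on the WT array and 24562 on the HDAC3cKO array. Such sums, here and below, are weighted toward the probe sets with the strongest signal, and each probe set has its own response. Mfap5, a microfibril gene, was 5.28-fold higher, Mgp, a matrix calcification inhibitor gene, 2.87-fold, and Dcn, the gene of decorin, 2.73-fold. Of 12 endothelial markers, 7 were higher, with a median of 1.04 and summed intensities of 8265 and 17828. All 12 had mean levels at or above the median gene, and 4.54% of genes at such levels were higher. Emcn, a sialomucin gene of endothelium, was 4.60-fold higher. Of 7 mesothelial markers, 5 were higher, with a median of 2.06 and summed intensities of 6266 and 11273. Upk3b, a uroplakin gene of mesothelium, was 8.21-fold higher and Lrrn4, another mesothelial marker gene, 6.51-fold. The 2 mesothelial markers under 2-fold were Msln, which differed by -0.41, and Krt19, by 0.21.

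Markers of blood cells had medians below 0, and those of pericytes and smooth muscle went both ways. Of 16 macrophage and dendritic cell markers, 3 were lower, beside 5.88% of all named genes. Values below 0 were seen for 15, and the median of the 16 was -0.77, beside 0.01 over all named genes. The 16 had summed intensities of 15355 on the WT array and 8321 on the HDAC3cKO array. Flt3, a cytokine receptor gene of dendritic cells, was 2.95-fold lower, and Lyz2, a lysozyme gene of macrophages, 2.12-fold. Of 9 thymocyte markers 1 was lower, with a median of -0.54 and summed intensities of 4830 and 3474. Of 10 markers of pericytes and smooth muscle 1, Des, was lower, with a median of -0.17 and summed intensities of 16925 and 10275. Of these 10, 5 were above 0 and 5 below, and Acta2 and Rgs5 gave the strongest signals in the sums. The counts of lower thymocyte and pericyte markers lay near the 5.88% of all named genes. No marker of these lists was at 0 on either array, and their lowest log2 level was 5.83, of Muc16 on the WT array. Within the fibroblast list Pdgfra, Gsn and Lum had values below 0, of -0.52, -0.28 and -0.15. Among members that such cells also make, Vim differed by -0.11, Fn1 by 0.68, Tgfbi by -1.60 and Zeb2 by 0.16. Some matrix and smooth muscle genes sit both in these lists and in the mesenchymal list. The part of these cells in the values of the EMT genes was not tested. In bulk RNA, fewer cells of a type and less RNA per cell cannot be told apart.

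The sorted cell type was checked against 12 genes of thymic epithelium. The epithelial keratin genes Krt8 and Krt5 were at 13.73 and 12.93 on the WT array and at 13.96 and 13.33 on the HDAC3cKO array. Foxn1, the regulator of thymic epithelium whose promoter drives the Cre, was at 9.68 and 9.81. Of the 12 genes, 3 were lower and 1 was higher, beside 5.88% and 2.97% of all named genes. Fezf2, a regulator of tissue-restricted antigens, was at 11.47 and 8.50, 7.85-fold lower. The basal keratin gene Krt14 was 2.57-fold lower and Tnfrsf11a, the gene of the receptor RANK, 2.19-fold. The mature mTEC genes Aire and Cd80 differed by -0.55 and -0.85, and Ly75, a receptor gene of cortical epithelium, by 0.66. Psmb11, a proteasome subunit gene of cortical epithelium, was 2.90-fold higher. The median of the 12 genes was -0.07 and their summed intensities were 36668 and 34992. These sums are weighted toward Krt8, at 13574 and 15960, and Krt5, at 7792 and 10284.

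**Figure D4:**
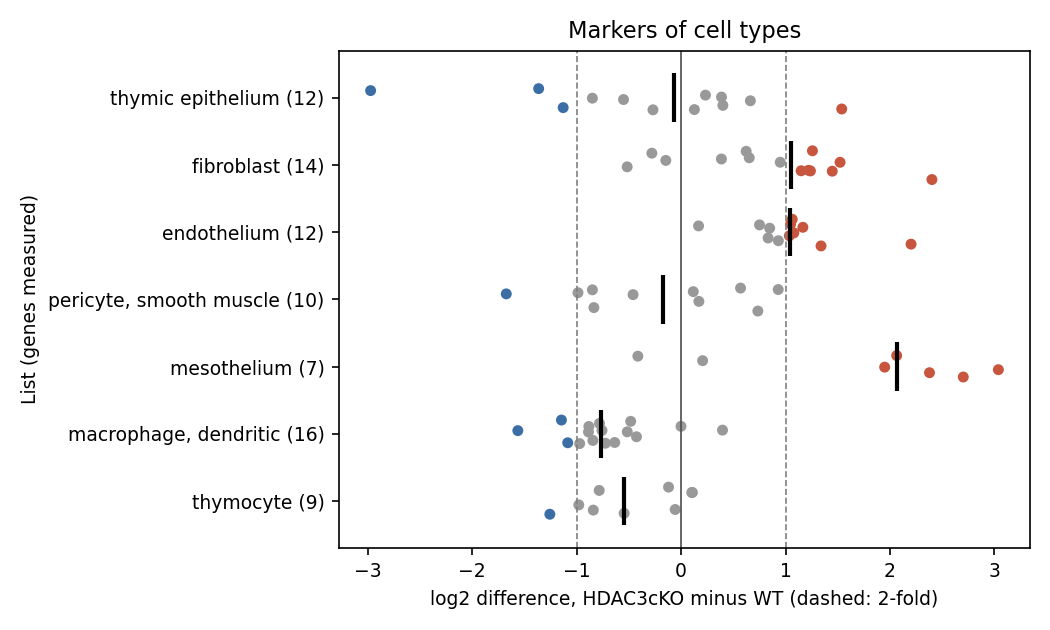
Log2 difference of each marker gene (points, horizontal axis, HDAC3cKO minus WT) in 7 lists of cell types, with the number of genes in parentheses and a black bar at the median; colours and dashed lines mark 2-fold, and vertical scatter has no meaning. The fibroblast, endothelial and mesothelial medians are 1.05, 1.04 and 2.06, and the macrophage median is -0.77.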

How the data were processed

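RNA of 2 sorted mTEC samples, 1 per genotype, was measured on whole-transcript arrays. The deposited table holds linear intensities between 10.8 and 29745, 1 for every probe set on each array. RMA, which corrects background, normalizes across arrays and summarises probes, made them, per the submitters' processing notes. No source used here gives its version. The intensities were turned into log2 values without a pseudocount or any rescaling. The platform annotation, which can be old, gave 1 gene symbol to 21640 of 34760 probe sets, several to 1321 and none to 11799. Of those with 1 symbol, 21553 matched RefSeq (GRCm38.p6) by Entrez identifier, with 0 symbols changed. The probe set with the highest mean was used per gene. The intensity table names no genome build, so the coordinates printed are those of the RefSeq promoter windows (GRCm38.p6) alone.

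The members and gene lists were chosen with earlier results of these data known. The text names Hdac3, the 9 members, a set of genes fixed by name, and members of each list with the largest differences, at most 3 in each direction, among those at least 2-fold apart. Other named genes were chosen after their values were seen. The connective tissue growth factor gene was matched through an older name. Protein sequences were not used here. The scalings were tested on simulated arrays with known large changes and little noise. The choice of probe set and the gene counts were not tested in this way. The alternatives were median centring, quantile normalization, loess (span 0.3), 16 added before log2, other probe set choices, a 1.5-fold threshold, a filter at the median level and means. The tools were matplotlib 3.10.9, pandas 2.3.3, numpy 2.4.6 and statsmodels 0.14.6 under Python 3.11.15.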

Additional observations from a re-analysis of the deposited data

How the results depend on the processing

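Each member's difference kept its side of 2-fold under median centring, quantile normalization, loess and 16 added before log2. The other probe set choices could not change a member, because each had 1 probe set and shared none. Tgfbi ranged from -1.68 to -1.55 and Snai1 from 0.75 to 0.85. Zeb1 changed sign under median centring, to 0.03, and Twist2 under median centring, to 0.05, and quantile normalization, to 0.04. With a 1.5-fold threshold 2 members were higher, Snai1 and Fn1, in place of 0, beside 8.33% of all named genes, and 1 was lower, beside 11.2%. Among the 6 members above the median level, the count of lower genes was again 1 and of higher genes 0. The members' median was between 0.12 and 0.21 under the scalings, and their mean was 0.06. Counts of lists moved as follows. Under loess, 4 mesenchymal genes in place of 2, 4 macrophage markers in place of 3, 2 pericyte markers in place of 1 and 2 thymocyte markers in place of 1 were lower, and 3 mesenchymal genes in place of 4 and 5 endothelial markers in place of 7 were higher. Under quantile normalization, 3 mesenchymal genes and 2 pericyte markers were lower, and 3 mesenchymal genes and 6 endothelial markers higher. Under median centring 6 inducing signals in place of 5 were higher. With probe sets of several symbols allowed, 3 mesenchymal genes were higher. No paired analysis was possible because each group had 1 array. Leaving out a replicate was not possible either. Without detection calls, levels near background have no known error.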

Other observations

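Some genes of the EMT pathway differed in opposite directions within 1 family or within a receptor and its ligand. Met, the receptor of hepatocyte growth factor, had a log2 level of 8.15 on the WT array and 9.37 on the HDAC3cKO array, 2.32-fold higher, whereas its ligand gene Hgf was 3.40-fold lower. Hgf had a mean level below the median gene, at 7.79 and 6.03, and without detection calls its fold is uncertain. Among classical cadherins, Cdh11, a cadherin gene of mesenchyme, was at 9.70 and 10.72, 2.02-fold higher, and Cdh2 was 7.70-fold lower. After loess scaling Cdh11 differed by 0.95, under 2-fold. Of the gelatinase genes, Mmp2 was 4.11-fold higher and Mmp9 4.12-fold lower. These genes were chosen after their values were seen.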
